A study of Mus musculus with 6 samples.

Results

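The genes described here encode the proteasome, the protease that degrades ubiquitin-tagged proteins, and were measured by RNA sequencing of T follicular helper (Tfh) cells, a class of CD4+ T cell on which germinal center B cells depend. Members were taken by symbol, as every gene beginning with Psma, Psmb, Psmc, Psmd, Psme, Psmf or Psmg other than *Psmb8* and *Psmb9*. This gave 49 of the 14744 genes in the table, of which 46 reached a normalized count of at least 10 in at least 3 libraries. The sort gate, set on mesenteric lymph nodes of C57BL/6 mice (C57BL/6J by the paper), was positive for CD4, CD44, PD-1 and CXCR5 and negative for B220. It yielded 10000 to 30000 cells per sample, and the cDNA was amplified before sequencing. By the paper mice were 2 to 3 months old, and WT mice were littermates that carry *Cd4*-cre only. The 3 Bach2-cKO libraries came from Bach2fl/flCd4-cre mice, in which Cre is driven by the *Cd4* promoter and therefore acts in all cells that have passed through *Cd4* expression in the thymus, CD8 T cells included. The question put to these genes was whether their mRNA levels differ between Tfh cells of the 2 genotypes.

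The proteasome core, the 20S particle, is a barrel of stacked rings in which the alpha subunits form the gate and the inner beta subunits carry the proteolytic sites. The 19S particle caps the barrel, where its non-ATPase subunits bind and remove ubiquitin and its ring of ATPases unfolds the substrate and threads it inside. In lymphocytes, 3 inducible catalytic subunits can replace the constitutive ones to give the immunoproteasome, and alternative activators can take the place of the 19S cap.

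The deleted gene, *Bach2*, serves as a check of the labels. It was at 233, 222 and 105 normalized counts in WT replicates 1, 2 and 3 and at 399, 762.5 and 591 in replicates 1, 2 and 3 labelled Bach2-cKO. All 3 libraries labelled Bach2-cKO lay above all 3 WT libraries (log2 fold change 1.68, limma adjusted p = 0.141). The table gives 1 value per gene, to which transcripts that lack the floxed exons may still contribute. Since this direction is opposite to a loss of *Bach2*, the text speaks of libraries labelled Bach2-cKO throughout. *Foxp3* was at 222, 315 and 344 in WT and at 47.3, 140 and 91.0 in the libraries labelled Bach2-cKO. These groups did not overlap either (log2 fold change -1.76, limma adjusted p = 0.141). By flow cytometry, the paper reports a shift from Foxp3-positive toward Foxp3-negative follicular T cells in mice lacking Bach2 in T cells. With the labels as given, the *Foxp3* values run in that direction and the *Bach2* values run opposite to a loss. Whether the labels of the 2 groups were exchanged, which would turn every direction given below, was not tested. Of 11 Tfh marker genes, 0 were listed at 0 in any library. This cannot tell Tfh cells from others. The marker lists of myeloid cells and of CD8 T cells and NK cells also had 0 genes at 0 in every library but WT replicate 1. *Cxcr5* was at 1613, 1444 and 2039 in WT and at 2028, 1271 and 2207 in the libraries labelled Bach2-cKO. Other markers differed without overlap of the groups, with log2 fold changes of -1.03 for *Icos*, -1.02 for *Cd3e*, 0.49 for *Cd4*, 0.74 for *Bcl6* and 0.93 for *Cd44*.

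For proteasome genes, the libraries of 1 group were not alike. Replicate 3 labelled Bach2-cKO was the highest of its group for 41 of the 46 genes. It lay within the range of the WT values for 22 of them (47.8%), a share like the 52.3% of all genes tested. WT replicate 1 lay apart from WT replicates 2 and 3 in the number of genes above 0, 11648 against 13217 and 13247, and held the highest of the 6 values for 24 of the 46 genes. Counts are therefore also given without replicate 3 labelled Bach2-cKO and without WT replicate 1. Nothing in the sources says that replicates came from separate mice, so that p-values measure the spread between these samples, which may be technical.

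Most proteasome genes had log2 fold changes below 0 in the libraries labelled Bach2-cKO. This held for 39 of the 46 genes, where it held for 5111 of the 11296 genes tested. With a trend in transcript length and GC content removed, as described below, it held for 25 of the 46 and for 4902 of 11264. The median was -0.40 (-0.04 with that trend removed), against 0.08 over the 11296 genes tested. The genes of the 20S and 19S particles made up most of the 39, with 30 of 32 below 0, or 20 of 32 with that trend removed. Together the 46 genes held 1.76%, 1.56% and 1.63% of the normalized counts of the WT libraries, and 1.13%, 1.28% and 1.60% of the libraries labelled Bach2-cKO. In bulk RNA, fewer cells of one type and less RNA per cell cannot be told apart.

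No single gene passed the thresholds by limma on all 6 libraries. On the scale of log2(normalized count + 1), on which low values appear to differ less than they do, 0 of the 46 genes and 0% of the 11296 tested passed a limma adjusted p of 0.01 and a 2-fold change. At an unadjusted p under 0.05, 15 of the 46 were lower (32.6%), where 10.2% of all genes tested were lower. In the other direction 1 was higher, *Psme4*, where 10.1% of all genes tested were higher. The values of the groups did not overlap for 14 members that were lower, against 12.2% of all genes, and for 1 that was higher, against 14.6%. By edgeR and DESeq2 on 5 libraries, 11 and 12 members were lower at that p, where 8.77% and 9.45% of all genes were. Without replicate 1 labelled Bach2-cKO 9 members were lower by limma, where 5.36% of all genes were, with a median of -0.27. Without replicate 3 of that label 28 were, where 14.0% of all genes were, and the median was -0.57. In that fit 8 members were lower at an adjusted p under 0.05, where 2.88% of all genes were. Without WT replicate 1, 11 members were lower at an unadjusted p under 0.05, where 9.43% of all genes were, with a median of -0.35. DESeq2 on whole reads recovered from 5 libraries, without WT replicate 1, called *Psmd5* lower at an adjusted p under 0.05, where 1.74% of all genes were lower, and *Psmd3* higher, where 1.51% were higher. With 1 weight per library, a setting chosen after seeing the data, 27 members were lower at an adjusted p under 0.05, where 18.4% of all genes were.

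**Figure D1:**
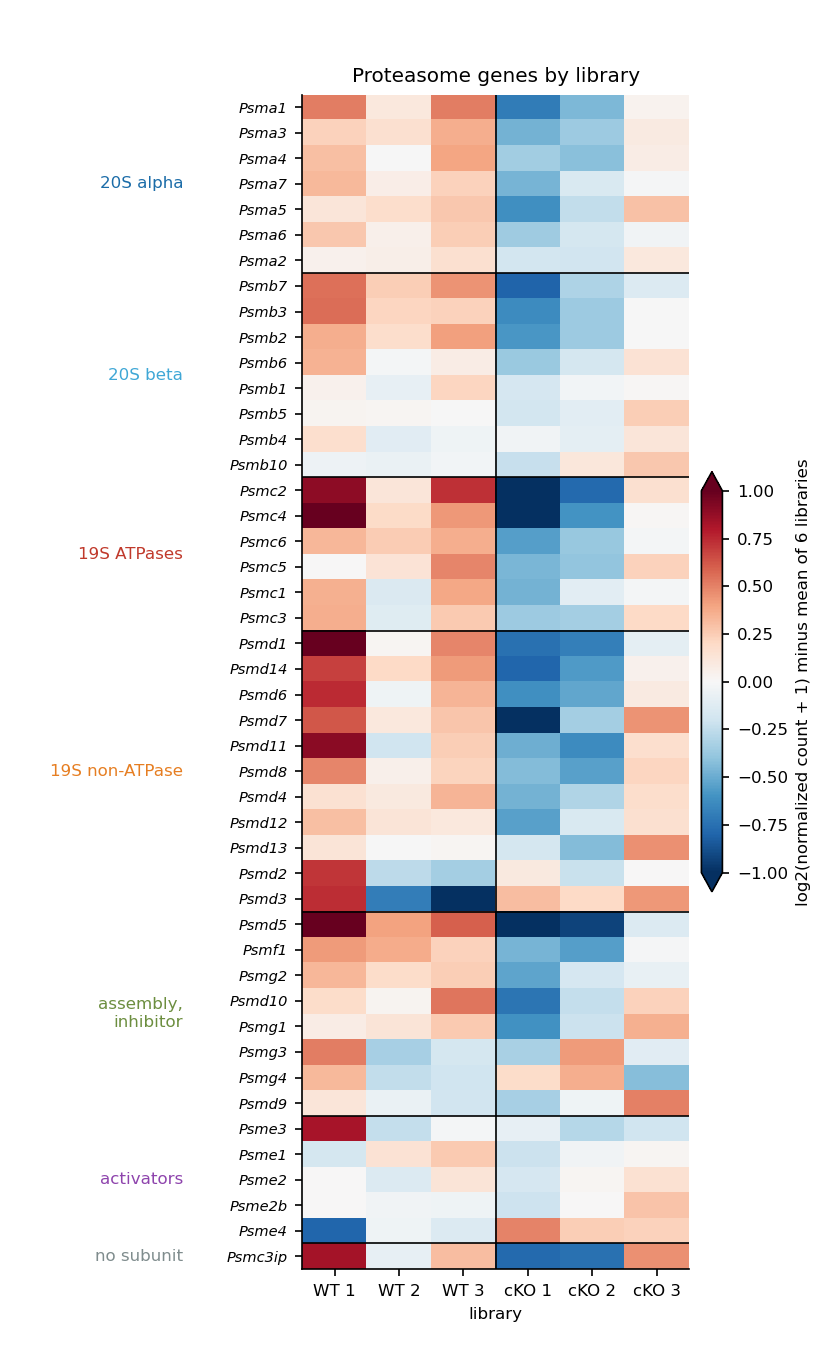
Heat map of the 46 proteasome genes (rows, grouped by role) in the 6 libraries (columns), where color is log2(normalized count + 1) minus the mean of the 6 libraries, cut at 1 in either direction. Replicates 1 and 2 labelled Bach2-cKO (cKO) are blue for most 20S and 19S genes, and replicate 3 is near the middle of the scale. The activators, just above *Psmc3ip* in the last row, vary little apart from *Psme3* and *Psme4*.

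The 7 alpha subunits of the 20S particle, which form its outer rings and gate, all had log2 fold changes below 0, from -0.75 for *Psma1* to -0.17 for *Psma2*, with a median of -0.42, although this median was 0.07 with the length and GC trend removed. *Psma1* was at 7528, 5680.4 and 7531.5 normalized counts in WT replicates 1, 2 and 3 and at 3254, 3865.5 and 5417 in replicates 1, 2 and 3 labelled Bach2-cKO. The groups did not overlap, although the highest value of the second group lay just under the lowest WT value. Its means were 6913 ± 1068 against 4179 ± 1115 (SD, n = 3), a log2 fold change of -0.75 (95% confidence interval -1.26 to -0.23, limma adjusted p = 0.156). This fell to -0.13 after removal of the length and GC trend. *Psma3*, another subunit of the ring, was at 8695, 8254 and 9503 in WT and at 5328, 5759.7 and 7865 in the libraries labelled Bach2-cKO, again without overlap. *Psma7* was at 6657.5, 5566 and 6229 and 3838, 4787 and 5279.6, and *Psma6* at 5651, 4847 and 5538 and 3646, 4147 and 4563. In both genes all 3 libraries labelled Bach2-cKO lay under all WT libraries, with log2 fold changes of -0.42 and -0.38 (-0.12 and 0.10 after removal of the length and GC trend). Replicates 1 and 2 labelled Bach2-cKO were below all 3 WT libraries for 7 of the 7 alpha genes and for 32 of the 46 members, against 23.0% of all genes tested.

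The 8 beta subunits had a median log2 fold change of -0.19. It was -0.06 after removal of the length and GC trend and -0.11 without replicate 1 labelled Bach2-cKO. *Psmb7*, *Psmb3* and *Psmb2* were each lower without overlap, *Psmb6* was at -0.27, and *Psmb1*, *Psmb4*, *Psmb5* and *Psmb10* had log2 fold changes from -0.12 to 0.10. After removal of the trend, *Psmb1* and *Psmb4* were at 0.46 and 0.36. *Psmb3*, a structural subunit of the beta ring, was at 5904, 4644 and 4716 in WT and 2586, 3115 and 3988 in the libraries labelled Bach2-cKO (log2 fold change -0.67, limma adjusted p = 0.158). *Psmb2*, also structural, was at 6899.8, 6059.5 and 7141.5 and 3572, 4164 and 5344. Its log2 fold change was -0.64 (limma adjusted p = 0.159), or -0.34 after removal of the length and GC trend. In both genes replicate 1 labelled Bach2-cKO was the lowest of the 6 libraries.

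The catalytic subunits form 3 pairs of a constitutive subunit and the inducible one that replaces it in the immunoproteasome. The 3 pairs did not behave alike. *Psmb7*, which carries the trypsin-like site, was at 1132.5, 916 and 1056.5 normalized counts in WT replicates 1, 2 and 3 and at 442, 622.5 and 702 in replicates 1, 2 and 3 labelled Bach2-cKO. Every library of the second group was lower than every WT library, with means of 1035 ± 109.6 against 589 ± 133 (SD, n = 3) and a log2 fold change of -0.83 (95% confidence interval -1.36 to -0.31, limma adjusted p = 0.146), or -0.39 after removal of the length and GC trend. Its inducible partner *Psmb10* was at 2174, 2145 and 2205.5 in WT, a narrow range, and at 1911, 2426 and 2707 in the libraries labelled Bach2-cKO, on both sides of it. The ratio of *Psmb10* to *Psmb7* normalized counts was accordingly 1.92, 2.34 and 2.09 in WT and 4.32, 3.90 and 3.86 in the libraries labelled Bach2-cKO. Here replicate 3 of that label was like replicates 1 and 2, and the groups were far apart. The difference on the log2 scale was 0.93 (2-sided exact permutation p = 0.1, the smallest that 3 libraries against 3 can give). It was 0.69 with the length and GC trend described below removed, again without overlap.

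The other pairs gave ratios that overlapped. *Psmb5*, with the chymotrypsin-like site, was at 1781.5, 1767 and 1743 in WT and 1534, 1621.5 and 2071 in the libraries labelled Bach2-cKO, and its partner *Psmb8* at 3615, 3509.8 and 4108 and 3499.8, 3454 and 4248. The *Psmb8* to *Psmb5* ratio was 2.13 ± 0.203 against 2.15 ± 0.117 (SD, n = 3, exact permutation p = 0.8). *Psmb6*, with the caspase-like site, was at 5543, 4286 and 4589 and 3369.7, 3859.5 and 4803, and its partner *Psmb9* at 3876, 3904 and 4859 and 3718.5, 3841 and 4641. The *Psmb9* to *Psmb6* ratio was 0.890 ± 0.181 against 1.02 ± 0.0723 (SD, n = 3, exact permutation p = 0.4). The 3 ratios form 1 family of tests, in which no p can pass after adjustment. *Psmb7* shares 34.9% of its exon bases with *Nek6* on the opposite strand, and reads there cannot be assigned without strand information. *Nek6*, looked up after that overlap was found, was low in every library, at 28.3, 34.8 and 38.5 in WT and 20.7, 10.7 and 34.8 in the libraries labelled Bach2-cKO.

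**Figure D2:**
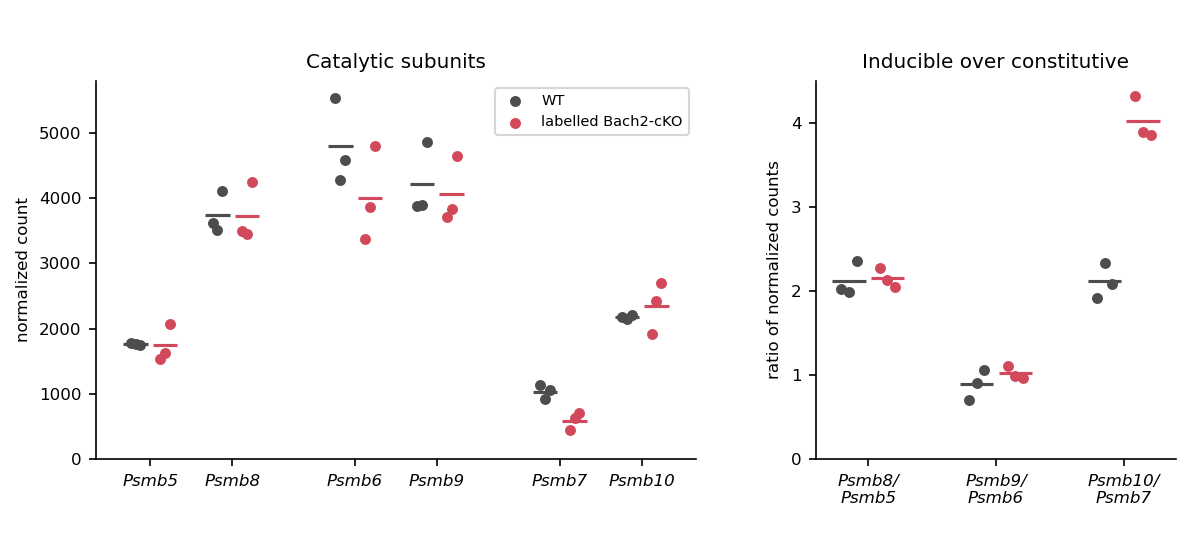
Normalized counts of the constitutive and inducible catalytic subunits in each library (left, points, lines at group means) and the ratio of each inducible subunit to its constitutive partner in each library (right, lines at group means), with WT in gray and libraries labelled Bach2-cKO in red. The ratio of *Psmb10* to *Psmb7* is the only 1 of the 3 ratios whose groups do not overlap.

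The 6 ATPases of the 19S base, which unfold the substrate, all had log2 fold changes below 0, with a median of -0.53, or -0.10 after removal of the length and GC trend. *Psmc2* was at 3213, 1877 and 2855 normalized counts in WT and at 785, 1003 and 1930.0 in the libraries labelled Bach2-cKO. Replicate 3 of that label lay just above WT replicate 2, so the groups overlapped, while replicates 1 and 2 lay far below. Its log2 fold change was -1.17 (95% confidence interval -1.91 to -0.43, limma adjusted p = 0.146), and -1.54 without replicate 3. *Psmc4* was at 3266, 1865 and 2209 in WT and 794, 1077 and 1646 in the libraries labelled Bach2-cKO, without overlap. Its log2 fold change was -1.09 (95% confidence interval -1.75 to -0.42, limma adjusted p = 0.144). *Psmc6* varied little within WT, at 2393, 2267 and 2439, and was at 1296, 1457 and 1877 in the libraries labelled Bach2-cKO. Again all of the second group lay below WT (log2 fold change -0.63, limma adjusted p = 0.157). The other ATPases differed less, with -0.42 for *Psmc5*, -0.40 for *Psmc1* and -0.34 for *Psmc3*, each with groups that overlapped. After removal of the length and GC trend these were -0.01, 0.05 and -0.07, and *Psmc6* was at -0.13.

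Of the 11 non-ATPase subunits of the 19S particle, 10 had a log2 fold change below 0. Their median was -0.51, or -0.17 after removal of the length and GC trend and -0.28 without replicate 1 labelled Bach2-cKO. *Psmd1*, the larger scaffold subunit of the base, was at 1688, 843.5 and 1169.8 in WT and 495, 517 and 775 in the libraries labelled Bach2-cKO. The groups did not overlap, and WT replicate 1 was well above the other WT libraries. The log2 fold change was -1.02 (95% confidence interval -1.67 to -0.37, limma adjusted p = 0.146), and -0.77 without WT replicate 1. *Psmd14*, the deubiquitinase of the lid that cuts ubiquitin off the substrate, was at 3866, 2753 and 3233 in WT and 1385, 1620.2 and 2477 in the libraries labelled Bach2-cKO. It too was lower in all 3 libraries of that label, with means of 3284 ± 558 against 1827 ± 575 (SD, n = 3), and its log2 fold change was -0.88 (limma adjusted p = 0.146), or -0.21 after removal of the length and GC trend.

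*Psmd4*, a ubiquitin receptor, was near the median of the members. It was at 1983, 1909 and 2254 in WT and 1284, 1445 and 2014 in the libraries labelled Bach2-cKO, where replicates 1 and 2 lay below all WT values and replicate 3 among them, and its log2 fold change was -0.40 (-0.11 after removal of the length and GC trend). Not every 19S gene followed. *Psmd2*, the second scaffold of the base and a docking site for ubiquitin receptors, was at 1807, 922 and 872 and 1182, 947 and 1105. Its log2 fold change of -0.08 rested on WT replicate 1 and was 0.26 without it. *Psmd3*, a lid subunit, was the exception in the other direction, at 504, 186 and 151 in WT and 374, 345 and 408 in the libraries labelled Bach2-cKO. All 3 of the latter lay between WT replicate 1 and WT replicates 2 and 3, so that the log2 fold change was 0.63 (limma adjusted p = 0.389) with all libraries and 1.16 without WT replicate 1. The call of *Psmd3* by DESeq2 above (adjusted p = 0.0208) was made without that library.

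**Figure D3:**
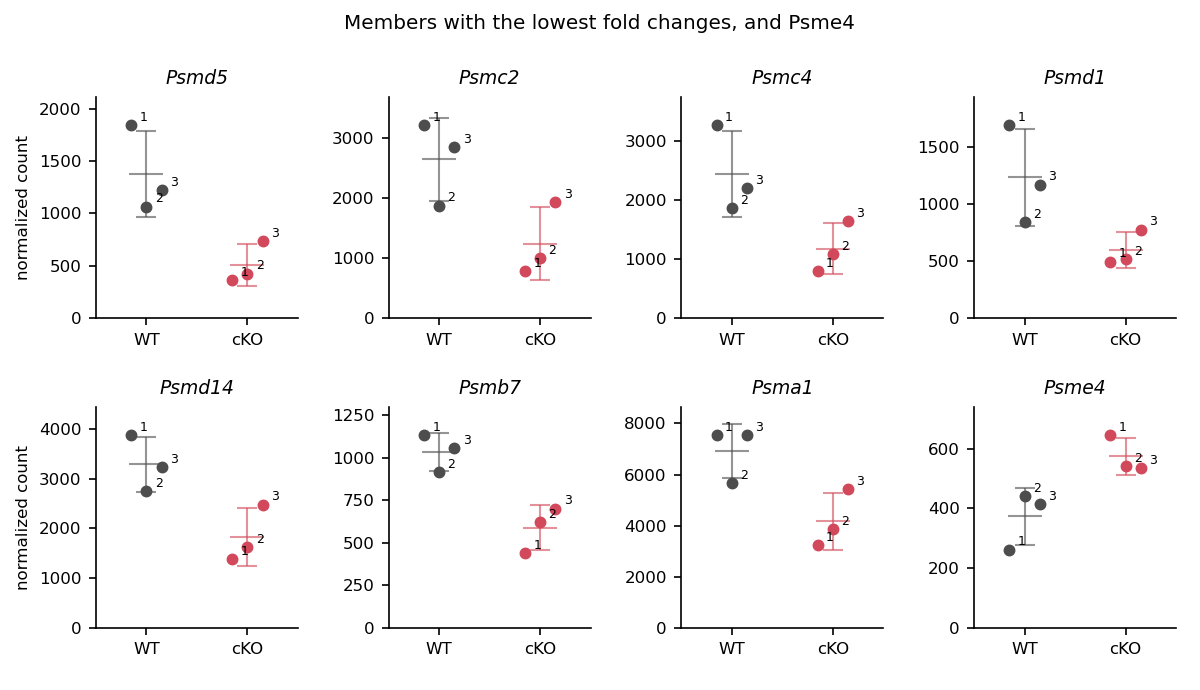
Normalized counts of the 7 proteasome subunits or assembly factors with the lowest log2 fold changes and of *Psme4*, with points for single libraries marked with the replicate number and bars for the mean ± SD (n = 3) of WT (gray) and of libraries labelled Bach2-cKO (red). Replicate 3 is the highest of the red points in each of the 7 genes with lower values.

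The 7 assembly factors and the inhibitor had a median log2 fold change of -0.40, which was 0.07 with the length and GC trend removed. Among them *Psmd5* had the lowest log2 fold change of all 46 members. *Psmd5* encodes a chaperone that holds ATPases of the 19S base during assembly and is not part of the finished particle. It was at 1839, 1063 and 1219 normalized counts in WT replicates 1, 2 and 3 and at 365, 424 and 733 in replicates 1, 2 and 3 labelled Bach2-cKO, without overlap. The means were 1374 ± 410.4 against 507.5 ± 198 (SD, n = 3), a log2 fold change of -1.46 (95% confidence interval -2.15 to -0.78, limma adjusted p = 0.141). By DESeq2 on 5 libraries it was -1.19 (adjusted p = 0.0208), and over the alternatives tried the log2 fold change of *Psmd5* stayed between -1.76 and -1.17. *Psmf1*, the inhibitor known as PI31, was at 780.2, 754 and 681 in WT and 421, 395 and 577 in the libraries labelled Bach2-cKO (log2 fold change -0.69, limma adjusted p = 0.165). Its groups did not overlap either.

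The other chaperones of the 19S base, *Psmd9* and *Psmd10*, were at log2 fold changes of 0.09 and -0.50, and that of *Psmd10* was 0.20 with the length and GC trend removed. The 4 chaperones of the 20S alpha ring, *Psmg1* to *Psmg4*, ranged from -0.51 for *Psmg2* to 0.08 for *Psmg4*. Of these only *Psmg2* had groups that did not overlap, at 1540.2, 1389 and 1452 in WT and 849.8, 1091 and 1164 in the libraries labelled Bach2-cKO, and its log2 fold change was -0.01 after removal of the length and GC trend.

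The 5 activators, which open the 20S gate without ATP, had a median log2 fold change of 0.01, or 0.29 after removal of the length and GC trend. Replicates 1 and 2 labelled Bach2-cKO were below all WT libraries for 0 of the 5 genes, against 23.0% of all genes tested. *Psme1* and *Psme2* encode the interferon-inducible PA28 ring that serves antigen processing. *Psme1* was at 5048, 6332 and 6864 in WT and 4927.5, 5571 and 5791 in the libraries labelled Bach2-cKO. *Psme2* was at 8241, 7481 and 9001 and 7345, 8349 and 9153, differing by less than the spread between replicates (log2 fold change 0.01, 95% confidence interval -0.41 to 0.42). The near-identical copy *Psme2b* had a log2 fold change of 0.05, and reads of the 2 genes may not be fully separated. *Psme3*, the nuclear PA28 subunit, was at 1159, 554 and 646 in WT and 616, 535 and 569 in the libraries labelled Bach2-cKO, so that its log2 fold change of -0.38 came from WT replicate 1 and was -0.06 without it. *Psme4*, which encodes the nuclear activator PA200, was the 1 member higher at an unadjusted p under 0.05. It was at 262, 442 and 415 in WT and 644, 541 and 536 in the libraries labelled Bach2-cKO, without overlap, with a log2 fold change of 0.65 (95% confidence interval 0.06 to 1.24, limma adjusted p = 0.212). WT replicate 1 was the lowest library, and without it the log2 fold change was 0.42 (limma unadjusted p = 0.0995). With the length and GC trend removed it was 0.42 (limma unadjusted p = 0.0759).

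**Figure D4:**
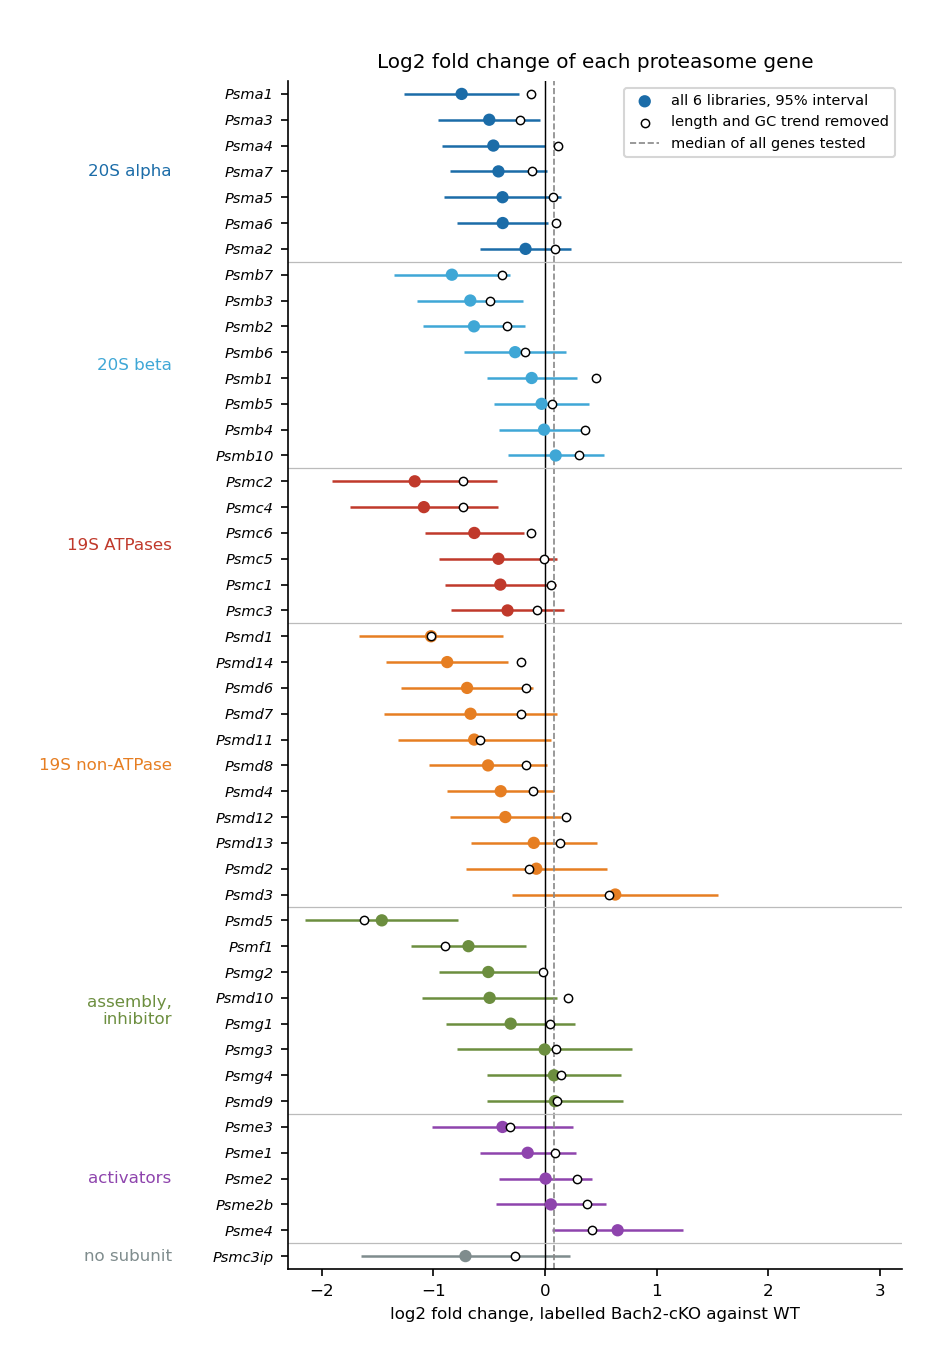
Log2 fold change of each of the 46 genes by limma (filled points, colored by role, with 95% confidence intervals) and after removal of the length and GC trend (open points), on an x axis of libraries labelled Bach2-cKO against WT with a dashed line at the median of all genes tested. Most filled points lie left of the dashed line, and most open points lie closer to it.

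Of the 3 members below the filter, *Psma8*, the alpha subunit of the testis proteasome, was listed at 0 in the 3 WT libraries and at 1.48, 10.7 and 4.09 normalized counts in replicates 1, 2 and 3 labelled Bach2-cKO, from 1, 16 and 4 reads. The pseudogenes *Psmb5-ps* and *Psmb6-ps2* had at most 3.03 and 5.05 normalized counts in any library. *Psmc3ip* was taken by its symbol, but encodes a partner of meiotic recombinases and no proteasome subunit. It was at 297, 157 and 206 in WT and 96.1, 98.5 and 228 in the libraries labelled Bach2-cKO, with groups that overlapped.

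Levels per kilobase of transcript allow members to be set side by side. In WT the median over the alpha subunits was 3409 normalized counts per kilobase, and over the beta subunits 3159. The 19S genes were lower on this scale, with 1320.3 for the ATPases and 633 for the non-ATPase subunits. Among beta subunits levels ran from 892 per kilobase for *Psmb7*, whose value may miss or wrongly include reads on the exon bases it shares with *Nek6*, to 7800.1 for *Psmb2*. The activators spanned the widest range, from 57.5 for *Psme4* to 8566 for *Psme2*. The ratio of the median 20S level to the median 19S level, per kilobase, was 2.99, 3.10 and 3.11 in WT and 4.37, 3.67 and 3.17 in the libraries labelled Bach2-cKO. Replicate 3 of that label was the nearest to WT. These levels rest on 1 annotated transcript per gene, and the transcripts used by these cells were not measured.

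The members varied together across libraries. In replicate 1 labelled Bach2-cKO, 33 of the 46 genes had the lowest of the 6 values, against 21.3% of all genes tested. Replicate 3 was the highest of its group for 41 of the 46, against 37.3% of all genes. The median deviation of the members from the mean of the 6 libraries was 0.33, 0.04 and 0.25 in WT on the log2 scale. It was -0.47, -0.27 and 0.10 in replicates 1, 2 and 3 labelled Bach2-cKO.

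Transcript length set the same libraries apart. Proteasome transcripts are short, with a median of 1408.5 bases against 2832 over 11264 genes with an annotated length. Across those genes, which are not independent replicates, Spearman's rho between length and log2 fold change was 0.336. Across the 46 proteasome genes alone it was -0.156. Between GC content and log2 fold change, rho was 0.139 across all those genes and 0.426 across the 46. Within libraries, rho between length and the deviation from the mean of the 6 libraries was -0.226, -0.0688 and -0.280 in WT. It was 0.342, 0.253 and 0.00277 in replicates 1, 2 and 3 labelled Bach2-cKO, so that short transcripts were low in the same 2 libraries in which proteasome genes were low. When genes were split into 4 equal bins by length, the shortest bin went up to 1762 bases, and its median log2 fold change was -0.22 for all genes and -0.40 for the 31 members in it. In bin 3 it was 0.23 for all genes and -0.57 for the 6 members in it, among them *Psmd1*, *Psmd2* and *Psmf1*.

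To set this apart, the dependence on length and GC content was fitted as a smooth curve in every library and taken out. The median log2 fold change of the members was then -0.04, against 0.10 for all genes, and 25 of the 46 were below 0. The median turned positive for the alpha subunits, at 0.07, and for the assembly factors and inhibitor, at 0.07. It stayed negative for the ATPases, at -0.10, and for the non-ATPase subunits, at -0.17. At an unadjusted p under 0.05, 6 members were lower, where 7.51% of all genes were, and 2 members, *Psmb1* and *Psmb4*, were higher, where 8.33% were. The 6 were *Psmd5* (-1.62), *Psmd1* (-1.02), *Psmf1* (-0.90), *Psmc2* (-0.74), *Psmc4* (-0.73) and *Psmb3* (-0.50). *Psmd14* and *Psma1*, both among the lowest before, were at -0.21 and -0.13, *Psmb7* was at -0.39 (limma unadjusted p = 0.0542) and *Psmb2* at -0.34. The others that had been lower at an unadjusted p under 0.05 moved closer to 0 as well, with -0.22 for *Psma3*, -0.17 for *Psmd6*, -0.13 for *Psmc6* and -0.01 for *Psmg2*, and *Psma4* turned from -0.46 to 0.11.

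**Figure D5:**
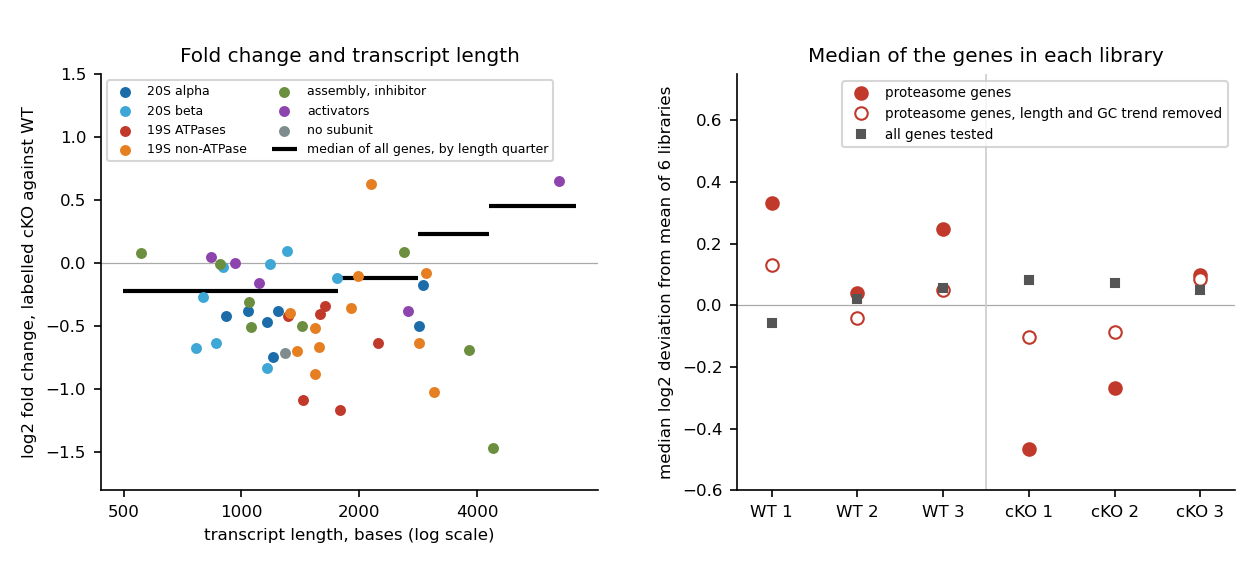
Left, log2 fold change of each proteasome gene (points, colored by role) against transcript length in bases on a log scale, with black lines at the median of all genes in each of 4 length bins, and right, median log2 deviation from the mean of the 6 libraries, in each library, for proteasome genes before (filled) and after (open) the length and GC trend was removed and for all genes tested (squares). Members lie mostly below the black lines, and the spread of their medians between libraries is smaller after removal.

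Genes of proliferation also had log2 fold changes below 0 for the most part. Of the 20 genes of this list 15 had log2 fold changes below 0, with a median of -0.54, and 6 were lower and 1 higher at an unadjusted p under 0.05, where 10.2% and 10.1% of all genes tested were. Without WT replicate 1 the median was -0.32 and 1 was lower, where 9.43% of all genes were. After removal of the length and GC trend the median was -0.41, with 3 lower and 0 higher, where 7.51% and 8.33% of all genes were. Their summed normalized counts were 40562, 18238 and 27155 in WT replicates 1, 2 and 3 and 20270.0, 16276 and 23894 in replicates 1, 2 and 3 labelled Bach2-cKO, and the most abundant was *Pcna*, at 2743 to 5638. WT replicate 1 was the highest library here as for the proteasome genes, but WT replicate 2 lay below replicate 1 labelled Bach2-cKO, the lowest library for the proteasome genes. The groups did not overlap for 0 genes that were lower, against 12.2% of all genes, and for 1 that was higher, against 14.6%. Treg markers were below 0 for 6 of 7 genes, from -1.76 for *Foxp3* to 0.52 for *Ikzf4*, with a median of -0.40. At an unadjusted p under 0.05 by limma 2 were lower and 0 higher. After removal of the length and GC trend the median was -0.53, with 1 lower and 0 higher. The Treg markers summed to 5395, 6009 and 7329.8 in WT replicates 1, 2 and 3 and 6416, 5252 and 4408 in replicates 1, 2 and 3 labelled Bach2-cKO, the most abundant being *Ikzf2*, at 3079.6 to 5448. The part of either in the proteasome values was not tested.

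Markers of cells that the sort should remove were examined in the same way. B cell markers summed to 242 to 932 per library. At an unadjusted p under 0.05, 1 of the 8 B cell genes tested was lower and 0 higher, and 3 were lower without WT replicate 1, with the median log2 fold change moving from 0.22 to -0.68. For this and the lists below, 10.2% of all genes tested were lower and 10.1% higher at that p. Without WT replicate 1, 9.43% of all genes were lower. Markers of CD8 T cells and NK cells summed to 656 to 1531, the largest sum over libraries being that of *Cd8b1*, at 127 to 517 and not the highest in every library, with 1 of 8 lower and 1 higher. Myeloid and dendritic cell markers reached 5570.1 to 16525, the largest sum over libraries being that of *Cst3*, at 2634 to 4446. *Lyz2*, at 1848, 7211.5 and 3444 in WT and 1445, 4395.5 and 1407 in the libraries labelled Bach2-cKO, was above it in WT replicates 2 and 3. Of 11 such genes 1 was lower and 0 higher. Without WT replicate 1, 2 of these 11 were lower, and 2 of the 8 CD8 T cell and NK cell genes. The median log2 fold change of the CD8 T cell and NK cell genes then moved from -0.27 to -0.59. Of the 11 Tfh markers, 2 were lower and 3 higher, and their median log2 fold change was -0.26, or 0.06 after removal of the length and GC trend.

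The wider ubiquitin-proteasome pathway did not share a direction. Of 31 genes outside the symbol rule, 5 were lower and 4 higher at an unadjusted p under 0.05 (16.1% and 12.9%, against 10.2% and 10.1% of all genes tested), and the median log2 fold change was 0.05. Among those that were lower, *Adrm1*, which encodes a ubiquitin receptor of the 19S particle, was at 1049, 781 and 999 in WT and 452, 424 and 938 in the libraries labelled Bach2-cKO (log2 fold change -0.73), and its partner deubiquitinase *Uchl5* had a log2 fold change of -0.62, which turned to 0.08 with the length and GC trend removed. The deubiquitinase *Usp14* was at 978, 965 and 1091 and 538, 646 and 753, without overlap (log2 fold change -0.66). The ubiquitin gene *Ubb* was lower as well (log2 fold change -0.78, or -0.46 after removal of the trend). The 4 that were higher act upstream of the proteasome. They were *Vcp* (0.50), the segregase that extracts ubiquitinated proteins, its cofactor *Nploc4* (1.01), the shuttle factor *Ubqln2* (0.88) and the protease *Ddi2* (0.86). After removal of the length and GC trend, only *Ubqln2* (0.72) of these 4 kept an unadjusted p under 0.05 by limma, with 0.36 for *Vcp*, 0.64 for *Nploc4* and 0.45 for *Ddi2*. Of the 31 genes, 3 were then lower and 5 higher at that p, where 7.51% and 8.33% of all genes were. The largest of the 5 was *Sem1*, listed as *Shfm1*, at 1.23 (0.50 before removal). It was at 4572, 5247 and 6064 in WT and 9255, 8545 and 5253 in the libraries labelled Bach2-cKO, with overlap. *Pomp*, which chaperones the maturing beta ring, was at 4732, 4251 and 5112 in WT and 4468, 4968 and 4255 in the libraries labelled Bach2-cKO, a difference within the spread between replicates. *Nfe2l1*, which encodes a transcription factor known to activate proteasome genes, was low, at 240.2, 75.2 and 89.4 and 205, 161 and 178, with groups that overlapped through WT replicate 1. Its log2 fold change was 0.62, and 1.13 without that library (limma unadjusted p = 0.00567), but 0.14 after removal of the length and GC trend (limma unadjusted p = 0.766). The genes of this paragraph that are named with a value but lie outside the naming rule were chosen after their values were seen.

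Because most members had log2 fold changes below 0, their promoters were searched for motifs. Windows from 250 bases before to 50 bases after the RefSeq start (build GRCm38.p6) were matched for 39 of the 46 members, in 42 windows. The motif TGACNNNGC, the core bound by the transcription factors encoded by *Nfe2l1* and *Nfe2l2*, was found on either strand in 6 of these windows (14.3%) and in 12.4% of all 32851 windows. The motif TGAGTCA, which AP-1 factors bind and which is also part of longer elements bound by BACH2 with small MAF proteins, was in 1 member window and in 5.20% of all windows. The 2 motifs can overlap. CCAAT was in 13 member windows (31.0%) and in 37.4% of all. A match is a description of letters and no sign of binding. The windows with either of the first 2 motifs are shown for the members with the lowest (*Psmc6*, -0.63, and *Psmd12*, -0.36, or -0.13 and 0.19 after removal of the length and GC trend) and the highest log2 fold change (*Psmd9*, 0.09, and *Psme4*, 0.65) among those that hold one. Each is written 5′ to 3′ on the strand of the gene, which is the plus strand for all 4, with the motifs in capitals.
Psmc6, chr14:45329574-45329873: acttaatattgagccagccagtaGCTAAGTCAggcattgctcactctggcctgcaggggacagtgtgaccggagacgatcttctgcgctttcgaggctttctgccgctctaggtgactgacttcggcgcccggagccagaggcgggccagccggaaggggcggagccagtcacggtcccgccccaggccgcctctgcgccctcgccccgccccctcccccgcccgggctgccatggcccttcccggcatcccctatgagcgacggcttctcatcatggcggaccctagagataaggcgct
Psmd12, chr11:107479278-107479577: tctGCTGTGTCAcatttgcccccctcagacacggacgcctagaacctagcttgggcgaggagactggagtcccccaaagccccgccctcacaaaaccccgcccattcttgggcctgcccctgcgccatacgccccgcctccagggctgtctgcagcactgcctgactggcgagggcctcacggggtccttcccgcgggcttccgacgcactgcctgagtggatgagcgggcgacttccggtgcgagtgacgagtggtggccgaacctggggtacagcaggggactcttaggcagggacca
Psmd9, chr5:123227940-123228239: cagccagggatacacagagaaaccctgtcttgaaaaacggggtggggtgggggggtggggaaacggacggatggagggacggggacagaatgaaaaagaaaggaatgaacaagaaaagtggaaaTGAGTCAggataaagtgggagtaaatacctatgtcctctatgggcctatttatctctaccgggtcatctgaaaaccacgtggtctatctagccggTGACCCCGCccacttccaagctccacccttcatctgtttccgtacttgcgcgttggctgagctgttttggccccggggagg
Psme4, chr11:30771525-30771824: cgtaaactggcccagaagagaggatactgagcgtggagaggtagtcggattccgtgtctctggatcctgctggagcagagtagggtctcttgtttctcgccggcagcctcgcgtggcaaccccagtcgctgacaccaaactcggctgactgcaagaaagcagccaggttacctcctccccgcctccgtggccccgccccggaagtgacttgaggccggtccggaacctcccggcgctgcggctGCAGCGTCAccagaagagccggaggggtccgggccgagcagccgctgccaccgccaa
In *Psmc6* and *Psmd12* the TGACNNNGC match begins 227 and 247 bases before the start, on the opposite strand. In *Psme4* it begins 7 bases before the start, also on the opposite strand. In *Psmd9* it begins 31 bases before the start, and TGAGTCA 126 bases before it.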

How the data were processed

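RNA sequencing values of 6 libraries of sorted Tfh cells were taken from the deposited table of normalized read counts (signal), made by the authors by dividing gene counts by a size factor per library. The paper's methods name Tophat2, HTSeq and DESeq2, whereas the submitters' processing notes name STAR 2.5.2b, DESeq2 1.20.0, R 3.5.1 and the builds GRCm38 and mm10. The annotation and the use of strand are not stated. The values of 3 WT and 3 libraries labelled Bach2-cKO were log2-transformed after adding 1, genes with values of at least 10 in at least 3 libraries were kept, and groups were compared with limma 3.58.1 (variance trend, Benjamini-Hochberg adjustment over 11296 genes) in R 4.3.3. Genes passed the thresholds with an adjusted p below 0.01 together with a difference above 2-fold. All values are whole multiples (100% within 0.01) of 1 step per library, and reads recovered in this way (5045131 to 10987752 per library) were tested with edgeR 4.0.16 and DESeq2 1.42.0 in 5 libraries. WT replicate 1 was left out there, since its step lay too close to 1 for this check. A gene with 100 reads has a counting error near 10%. Transcript lengths and GC contents were those of GENCODE mouse release 21 (M21) for 14329 genes by symbol and 363 by an older symbol, and their trend was fitted per library with mgcv 1.9.3. The code was tested on simulated data. Named genes were the catalytic subunits and their inducible partners, chosen subunits of each particle, activators and assembly factors, the 6 members with the lowest and the 6 with the highest log2 fold change, and members whose groups did not overlap. Other genes given with a value were chosen after their values were seen, apart from cell markers. Members and lists were chosen with earlier results of these data known. Alternatives tried were other pseudocounts and filters, quantile normalization, median rescaling, no variance trend, a replicate block, leaving out each library, and, chosen after seeing the data, library weights.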

Additional observations from a re-analysis of the deposited data

How the results depend on the processing

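Of 684 log2 fold changes of 38 named genes under the alternatives, 636 kept their direction and 48 reversed, in 14 genes, while 24 genes never reversed. With 3 libraries per group of unknown animals, 2 libraries that stand apart, amplified cDNA and no strand information, the cause of the shift of short transcripts was not tested.

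By DESeq2 on 5 libraries 33 genes were higher and 57 lower past the thresholds, and with library weights 561 and 567. Members lower at an unadjusted p under 0.05 numbered 6 once length and GC trends were removed, where 7.51% of all genes were lower. They numbered 30 with library weights, where 22.8% of all genes were lower. When 1 library was left out they numbered 9 to 28, where 5.4% to 14.0% of all genes were lower. Members higher numbered 0 under median rescaling and without a variance trend, 2 with the length and GC trend removed (8.33% of all genes), 3 with library weights and 0 to 1 when 1 library was left out. With the length and GC trend removed the median log2 fold change was -0.0435 for the members, 0.0730 for the alpha subunits, -0.10 for the ATPases, 0.0690 for the assembly factors and inhibitor and 0.29 for the activators. Under quantile normalization that of the beta subunits was -0.00994. Leaving out 1 library gave -0.58 to -0.17 for the assembly factors and inhibitor.

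With the length and GC trend removed, log2 fold changes were 0.42 for *Pomp*, 0.10 for *Psma6*, 0.0588 for *Psmb5*, 0.22 for *Psmb8*, 0.22 for *Psmb9*, 0.0887 for *Psme1*, 0.0425 for *Psmg1* and 0.0956 for *Psmg3*. Of members outside the named genes, they were 0.20 for *Psmd10*, 0.05 for *Psmc1*, 0.19 for *Psmd12*, 0.09 for *Psma2*, 0.11 for *Psma4*, 0.07 for *Psma5*, 0.14 for *Psmd13*, 0.46 for *Psmb1* and 0.36 for *Psmb4*, each below 0 before. Under quantile normalization they were 0.13 for *Pomp*, 0.0935 for *Psmb5*, 0.20 for *Psmb8*, 0.15 for *Psmb9*, 0.0274 for *Psmd2* and 0.00964 for *Psme1*. Under median rescaling they were -0.0791 for *Psme2*, -0.0317 for *Psme2b* and -0.00422 for *Psmg4*. By edgeR they were 0.26 for *Psmd2* and 0.29 for *Psmg3*, by DESeq2 0.23 and 0.26, with -0.0218 for *Psme2*. With library weights they were 0.00684 for *Pomp*, 0.0896 for *Psmd2*, -0.0408 for *Psme2* and 0.49 for *Psmg3*. The difference between *Psmb8* and *Psmb5* was -0.0171 by edgeR, -0.0190 by DESeq2 and -0.0577 with library weights. Leaving out 1 library gave -0.11 to 0.0219 for *Pomp*, -0.0142 to 0.24 for *Psmb10*, -0.16 to 0.0554 for *Psmb5*, -0.10 to 0.0613 for *Psmb8*, -0.15 to 0.0572 for *Psmb9*, -0.27 to 0.26 for *Psmd2*, -0.14 to 0.28 for *Psmd9*, -0.0695 to 0.0892 for *Psme2*, -0.0751 to 0.17 for *Psme2b*, -0.22 to 0.25 for *Psmg3*, -0.0819 to 0.31 for *Psmg4* and -0.0235 to 0.0999 for the difference between *Psmb8* and *Psmb5*.

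Replicates of the 2 groups share only a number. The deviations of equal numbers correlated at r = -0.0689, 0.116 and -0.0386 for replicates 1, 2 and 3, and not every library correlated best with its own number. With a replicate block 0 genes passed the thresholds, as without it. At an unadjusted p under 0.05, 15 members were then lower, where 9.15% of all genes were, and 0 higher.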
